A study of Rattus norvegicus with 4 samples.

Results

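The 10 genes described here are the liver X receptors, a set of their target genes and genes that move or store cholesterol in macrophages: Nr1h3, Nr1h2, Abca1, Abcg1, Apoe, Pltp, Mylip, Soat1, Lpcat3 and Srebf1. They were chosen by name, as the array probes whose gene name is one of these symbols or an older rat name for it, out of 18829 genes with a symbol on the array. All 10 were found, with 14 probes in all. Abca1, Abcg1, Soat1 and Srebf1 had 2 probes each, and the other 6 genes had 1.

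The cells were NR8383, a macrophage line obtained by lavage of a normal rat's lung, in which part of the cells adhere and part float. They were used after 20 passages and grown submerged in DMEM with 15% heat-inactivated serum and 2 mM glutamine. All 4 samples form 1 group, the submerged control, which the series' design text calls biological replicates, so no comparison between conditions was made, and every value comes from 1 cell line. The labels name both 4 h under medium and 48 h from seeding, and which interval the RNA reflects was not settled.

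Liver X receptors are nuclear receptors that bind oxysterols, the oxidised forms of cholesterol, and act on DNA as pairs with a retinoid X receptor. Without ligand the pair can hold corepressors at its target genes, and with ligand it raises transcription of genes that export cholesterol, limit its uptake and remodel membrane phospholipids. Alveolar macrophages take up and break down lung surfactant, which is rich in lipid, and loss of cholesterol export leaves such cells filled with lipid.

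All 10 genes were detected on all 4 arrays, where 54.9% of all named genes (10335 of 18829) met the same rule. The 10 genes were chosen with earlier results of these data known, so these shares were not tested against each other. A gene counted as detected when at least 1 of its probes was well above background on every array. Signals are given in fluorescence units as processed by the scanner software. A level is the log2 signal minus the log2 75th percentile of that array, so a level of 0 is the signal that 75 percent of spots do not exceed. That percentile was 1317, 1489, 1179 and 958 units on replicates 1 to 4, and the dimmest detected probe lay between 16.5 and 20.3 units. Pairs of arrays correlated at a Pearson's r of 0.9930 to 0.9972 (6 pairs, across detected genes, which do not count as replicates). Levels of different probes depend on the probe as well as on the RNA, and the genes are not ranked by them.

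The receptor pair recognises a direct repeat of AGGTCA in which the copies stand 4 bases apart, and the start regions of the genes were searched for it. RefSeq promoters on GRCr8, each 300 bases long with 250 before the start, were given for 9 of the 10 genes, 12 promoters in all, and Abcg1 was not among them. Both strands were read and the 12 bases of the repeat were compared. The closest match among the 12 promoters was in Abca1, with 3 mismatches, at positions -70 to -55 relative to the start, chr5:72596528-72596543. A match at least that close was present in 21.9% of all 33469 promoters, and none of the other promoters of the 9 genes had one. The Abca1 site is shown because the promoters of Apoe and Srebf1 hold stretches identical to it at 13 of 16 bases. A match to it at 13 or more bases was present in 36 of the 33469 promoters (0.108%), counting that of Abca1 itself. The Apoe stretch lies at positions -176 to -161, chr1:88485977-88485992, in 1 of the 3 Apoe promoters. The Srebf1 stretch lies at positions -209 to -194, chr10:45519204-45519219, in 1 of the 2 Srebf1 promoters. Each is printed 5′ to 3′ on the strand opposite to its gene, and capitals mark the longest unbroken run that all share.
Abca1: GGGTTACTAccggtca
Apoe: GGGTTACTAagggcca
Srebf1: GGGTTACTAgcgggcg
This run of 9 bases occurred in 26 of the 33469 promoters (0.0777%), among them these 3. The stretch was picked after the sequences had been read, and it is a description of letters, not a measured binding site.

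Nr1h3 encodes LXRα, the receptor form that is abundant in macrophages, liver and fat. Its signal was 6322, 7901, 5583 and 5327 units on replicates 1 to 4, and its level was 2.26, 2.41, 2.24 and 2.48 (2.35 ± 0.11, SD, n = 4). Replicates 2 and 4 were the higher and replicates 1 and 3 the lower, with 1.17-fold between the extremes. The probe lies at chr3:75542215-75542274 on the minus strand of rn4, the build of the files. Nr1h2 encodes LXRβ, which most tissues express. Its signal was 2582, 2780, 2192 and 1995 units, and its level was 0.97, 0.90, 0.89 and 1.06 (0.96 ± 0.08, SD, n = 4). Replicate 4 was highest, and the extremes were 1.12-fold apart. Its probe lies at chr1:95027486-95027545 on the minus strand. Both receptor probes were far above the dimmest detected probe of their array, by at least 262-fold for Nr1h3 and 98.2-fold for Nr1h2.

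**Figure D1:**
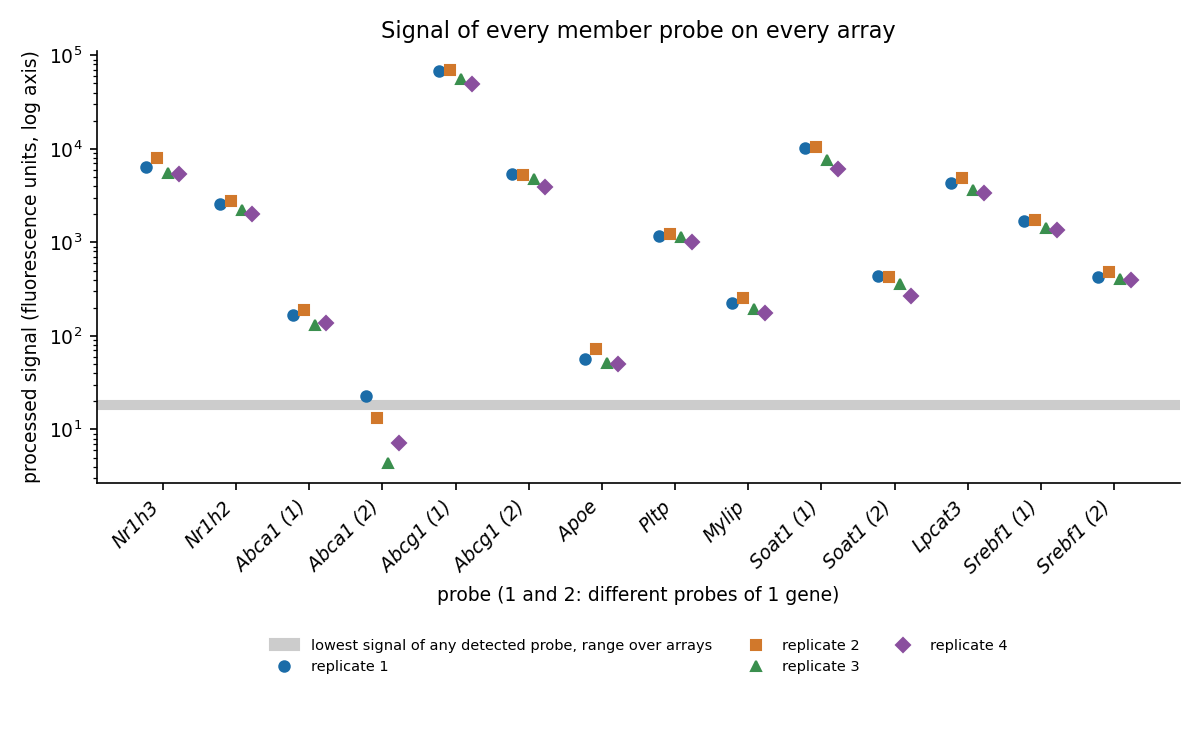
Processed signal in fluorescence units (log axis) of each of the 14 probes on each of the 4 arrays; each point is 1 array and the grey band spans the lowest signal of any detected probe, 16.5 to 20.3 units over the arrays. The second Abca1 probe lies above the band on replicate 1 alone, and Apoe is the dimmest of the other 13 probes.

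Abca1 is the transporter that hands cholesterol and phospholipid to lipid-poor apolipoprotein A-I. Its brighter probe gave 167, 188, 129 and 138 units, with levels of -2.98, -2.99, -3.19 and -2.79 (-2.99 ± 0.16, SD, n = 4). Replicate 3 was lowest and replicate 4 highest, and this 1.32-fold range was the widest among the 10 genes' brightest probes. The signal was 6.78 to 10.2 times that of the dimmest detected probe on its array. The second Abca1 probe, which matches a predicted transcript record further downstream, was detected on replicate 1 alone, with 22.8 units there and 13.2, 4.35 and 7.22 units on replicates 2 to 4. The call for Abca1 thus rests on 1 of its 2 probes.

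Abcg1 exports cholesterol to larger lipoprotein particles and is the transporter whose loss in mice leads to lipid-laden alveolar macrophages. Its brighter probe gave 68725, 68929, 56315 and 48725 units, with levels of 5.71, 5.53, 5.58 and 5.67 (5.62 ± 0.08, SD, n = 4). Replicate 1 was highest and replicate 2 lowest, 1.13-fold apart, and no spot on any array was saturated. The second probe gave 5385, 5279, 4719 and 3910 units, with levels of 2.03, 1.83, 2.00 and 2.03 (1.97 ± 0.10, SD, n = 4). Replicate 2 was lowest with this probe too, apart from the other 3 arrays, which lay close together.

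Apoe encodes apolipoprotein E, which macrophages secrete and which carries exported lipid. Its probe, at chr1:79003795-79003854 on the minus strand, gave 57.0, 73.3, 50.9 and 49.5 units, with levels of -4.54, -4.36, -4.56 and -4.28 (-4.43 ± 0.14, SD, n = 4). Replicates 2 and 4 were the higher and replicates 1 and 3 the lower, 1.21-fold apart. The signal was 2.44 to 3.98 times that of the dimmest detected probe. Apoe was the one member printed in 10 spots per array, all of them well above background. The spots of 1 array spread by a log2 SD of 0.18, 0.19, 0.28 and 0.17 on replicates 1 to 4, which gives the array's mean a standard error of 0.056, 0.061, 0.090 and 0.055. These errors cover the spots of an array alone, not labelling, hybridisation or scaling.

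Pltp encodes phospholipid transfer protein, which moves phospholipid between lipoprotein particles. Its signal was 1167, 1236, 1145 and 1015 units, and its level was -0.17, -0.27, -0.04 and 0.08 (-0.10 ± 0.15, SD, n = 4). Replicate 4 was highest and replicate 2 lowest, 1.28-fold apart. The probe's coordinates are chr3:155877758-155879914 on the minus strand, a span longer than its 60 bases. Mylip encodes IDOL, a ubiquitin ligase that limits lipoprotein uptake by sending receptors to degradation. Its signal was 224, 252, 192 and 175 units, and its level was -2.56, -2.56, -2.62 and -2.46 (-2.55 ± 0.07, SD, n = 4). The probe lies at chr17:25308154-25308213 on the minus strand. The 4 arrays agreed on Mylip within 1.12-fold, and its SD was 0.449 times the SD fitted for probes of like signal.

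Soat1 encodes the enzyme that esterifies cholesterol for storage in droplets, the alternative to export. Its brighter probe gave 10219, 10473, 7582 and 6105 units, with levels of 2.96, 2.81, 2.68 and 2.67 (2.78 ± 0.13, SD, n = 4). The second probe gave 437, 431, 359 and 269 units, with levels of -1.59, -1.79, -1.71 and -1.83 (-1.73 ± 0.10, SD, n = 4). The brighter probe matches a predicted transcript record and the second a curated one. Replicate 1 was highest and replicate 4 lowest with either probe, by 1.22-fold and 1.18-fold.

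Lpcat3 encodes an acyltransferase that places polyunsaturated chains into membrane phospholipids. Its signal was 4321, 4845, 3646 and 3345 units, and its level was 1.71, 1.70, 1.63 and 1.80 (1.71 ± 0.07, SD, n = 4). Replicate 4 was highest and replicate 3 lowest, 1.13-fold apart. The coordinates of its probe are chr4:160826146-160826279 on the plus strand. Srebf1 encodes SREBP-1, the transcription factor that drives fatty acid synthesis genes. Its brighter probe gave 1676, 1720, 1418 and 1349 units, with levels of 0.35, 0.21, 0.27 and 0.49 (0.33 ± 0.12, SD, n = 4). The second probe gave 430, 482, 409 and 399 units, with levels of -1.62, -1.63, -1.53 and -1.26 (-1.51 ± 0.17, SD, n = 4). Replicate 4 was highest and replicate 2 lowest with either Srebf1 probe, by 1.22-fold and 1.29-fold.

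Probes of the same gene disagreed on its level by far more than the arrays did. The first 30 of the 60 bases of each probe of the 4 genes are shown because each pair reads different stretches of its gene.
Abca1, brighter probe: ggaccaaagtgatgatgaccacttaaagga
Abca1, second probe: aatttgtactctcgatactattaactggta
Abcg1, brighter probe: gggtccgaattttccttacggcatggaacg
Abcg1, second probe: gaggagcggactgtgtcaatataaagttag
Soat1, brighter probe: agggagcaagtttagggtttttgtgttggt
Soat1, second probe: atgcctttgctgaaatgttacgctttggtg
Srebf1, brighter probe: ggctcatgtactacttttacaaactttatt
Srebf1, second probe: gtacctgcgggacagcttagcctctacatc
The Abca1 probes lie at chr5:70493613-70493672 and chr5:70490686-70490745, and those of Abcg1 at chr20:9459359-9459418 and chr20:9461740-9461799. The Soat1 probes lie at chr13:71418229-71418288 and chr13:71423884-71424171, and those of Srebf1 at chr10:46462235-46462294 and chr10:46463470-46463986. These positions are on rn4 as the files give them, and the second Soat1 and Srebf1 probes span more genome than their 60 bases; no exon or UTR annotation of that build was used. The bases that are G or C made up 45% and 35% of the Abca1 probes, 40% and 35% of the Abcg1 probes, 41.7% of either Soat1 probe, and 28.3% and 53.3% of the Srebf1 probes, brighter probe first.

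The brighter over second probe difference was 3.65 ± 0.06 log2 units for Abcg1, 4.51 ± 0.09 for Soat1 and 1.84 ± 0.09 for Srebf1 (SD, n = 4). On single arrays the ratio of signals was 11.9 to 13.1 for Abcg1, 21.1 to 24.3 for Soat1 and 3.38 to 3.90 for Srebf1. These differences were many times the spread between arrays. In each of these 3 genes the 2 probes also had their highest and their lowest array in common. For Abca1 the ratio was 7.32 on replicate 1, the one array where both probes were detected, and none is given for the other 3 arrays, where the second probe was not well above background.

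The replicates agreed on the 10 genes about as closely as on other genes. The SD of the level was 0.07 to 0.16 with a median of 0.12, and the median over all detected genes was 0.11. The highest array exceeded the lowest by 1.12-fold to 1.32-fold, with a median of 1.19, which is also the median over all detected genes. Each probe's variance was tested against the variance that limma fitted for probes of like signal, by an F test computed from that fit. With Benjamini-Hochberg adjustment over 19400 probes, 0 of the 10 genes passed an adjusted p of 0.05. With so few arrays, this count does not show that the genes are stable. The same test called 33 of the 19400 probes (0.17%) and 15 of 10335 genes (0.145%). None of the 10 genes had an unadjusted p under 0.05 either, where 1261 of the 19400 probes (6.5%) did. The lowest unadjusted p, 0.192, was that of Pltp (limma), and the adjusted p of the 10 genes lay between 0.996 and 0.997. The SD was above the fitted one for Pltp (1.46 times), Soat1 (1.41 times), Srebf1 (1.22 times) and Nr1h3 (1.19 times). The count of probes called was 75 without replicate 1, 47 without replicate 2, 0 without replicate 3 and 52 without replicate 4.

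**Figure D2:**
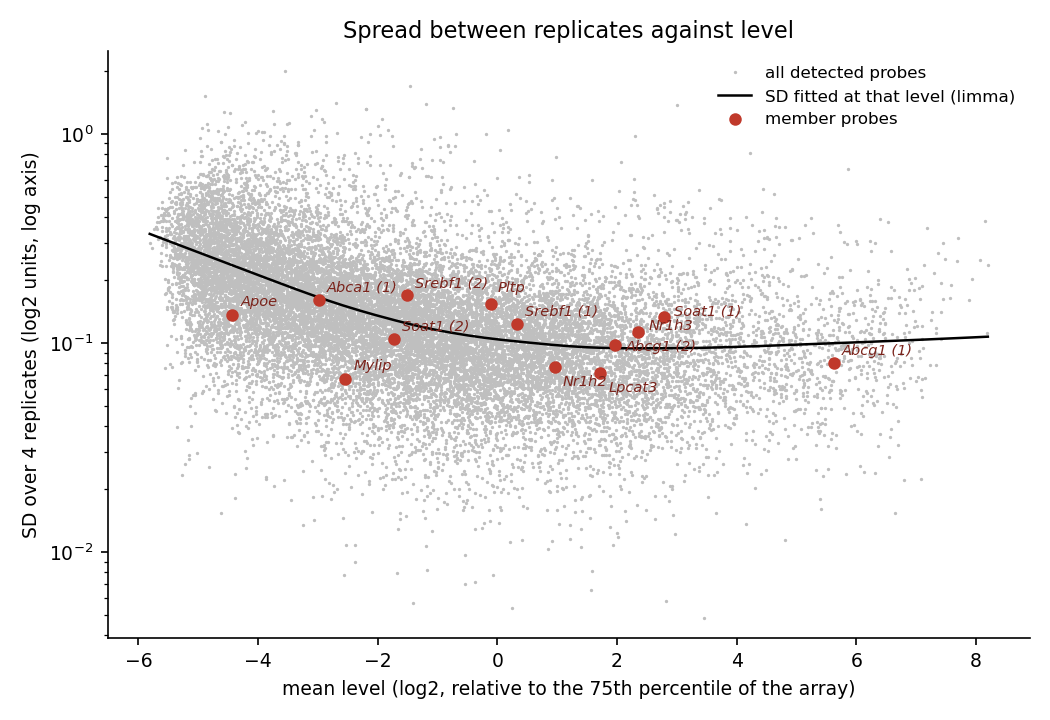
SD over the 4 replicates (log2 units, log axis) against mean level (log2, relative to the array's 75th percentile) for every probe detected on all arrays, with the fitted SD as a line and the 13 detected probes of the 10 genes in red. The red points sit on both sides of the line, between Mylip at 0.07 and the second Srebf1 probe at 0.17.

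The array on which each gene was highest was not spread evenly. With the 75th percentile as scale, 8 of the 10 genes were highest on replicate 4, as were 32.1% of all detected genes, and 2 were highest on replicate 1, as were 19.8%. The genes highest on replicate 1 were Abcg1 and Soat1. The 10 genes stood 0.10 above their own means on replicate 4 on average and 0.08 below them on replicate 3, where 6 of the 10 were lowest, as were 27.9% of all detected genes. The pattern depends on the scale: with spike-in controls as scale, 0 of the 10 were highest on replicate 4 and 9 were lowest there, as were 91.9% of all detected genes. The spike-in probes stood 0.99 log2 units further above the 75th percentile on replicate 4 than on replicate 1. Highest on replicate 4 were 7 of the 10 with quantile normalization, as were 26.2% of all detected genes, 7 with normexp background correction, as were 42.3%, and 8 with scaling to the median, as were 28.3%.

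**Figure D3:**
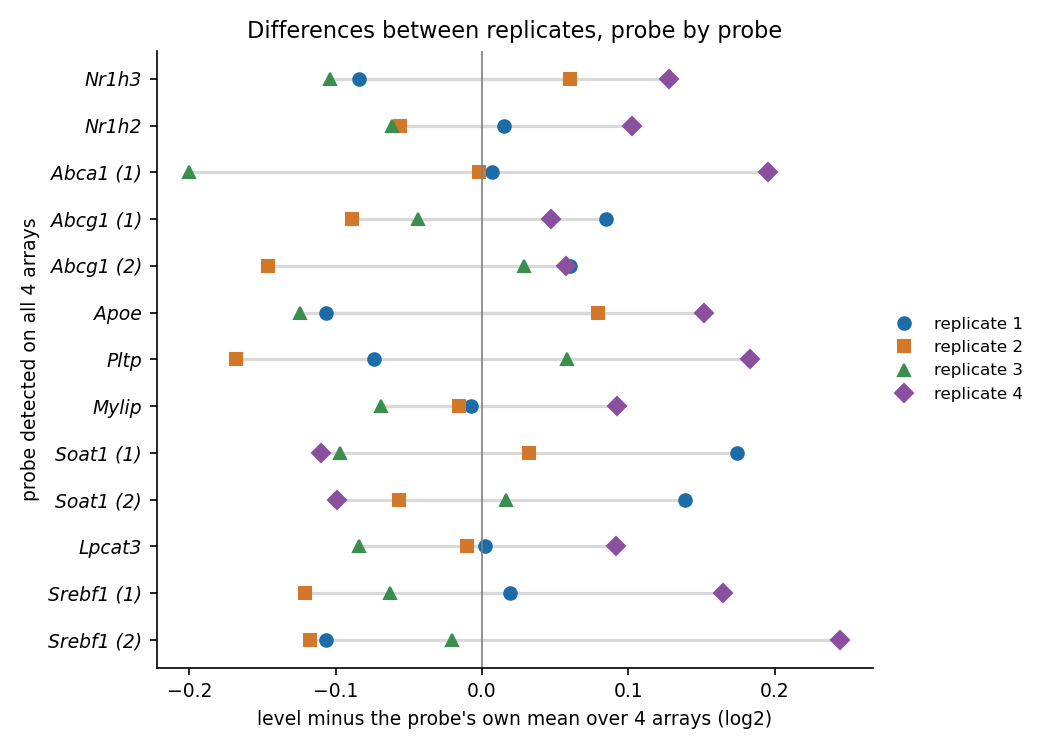
Level on each array minus the probe's own mean over the 4 arrays (log2 units, horizontal axis) for the 13 probes detected on all arrays; each symbol is 1 replicate and the grey line spans the range. Replicate 4 lies highest for the brightest probe of 8 genes, and both Abcg1 and both Soat1 probes are highest on replicate 1.

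The genes around the receptors were taken from 7 lists of 60 genes, of which 41 (68.3%) were detected on all arrays and 19 were not. Of those 19, 16 were detected on no array, and 11 rest on a single probe. The variance test (limma) covered the 41 detected genes alone, and none of them passed it. In that test 3 of the 41 had an unadjusted p under 0.05, as did 6.5% of all probes tested. The adjusted p of the 41 genes, with adjustment over all 19400 probes, lay between 0.338 and 0.998 (limma).

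Among the partners of the receptors, 10 of 11 retinoid X receptors, corepressors and coactivators were detected. Rxra and Rxrb, which encode the retinoid X receptors α and β, had levels of -3.77 ± 0.32 and -1.0 ± 0.08 (SD, n = 4), and Rxrg was not detected. Of 7 genes for making or breaking down oxysterols and related sterols, 3 were detected. Cyp27a1, the sterol 27-hydroxylase, had a level of -0.65 ± 0.06 and Ch25h, the cholesterol 25-hydroxylase, of -0.08 ± 0.14 (SD, n = 4). Cyp46a1, Cyp11a1, Cyp7b1 and Sult2b1 were not detected.

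Of 12 further genes known as targets of the receptors, 6 were detected. Abcg8, a sterol transporter subunit of liver and gut, had a level of -4.17 ± 0.31 (SD, n = 4) through 1 of its 2 probes, and its partner Abcg5 was detected on 1 array alone. Scd and Fasn, the desaturase and synthase that SREBP-1 also drives, were not detected, nor were Cd5l, Apoc1 and Arl4c. Lpl, the lipoprotein lipase, had a level of 5.63 ± 0.13 and Smpdl3a, a phosphodiesterase, of 4.50 ± 0.13 (SD, n = 4); these 2 were picked as examples after their values were seen.

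Of 12 other genes of efflux and cholesterol ester turnover, 8 were detected. Scarb1, a receptor for high-density lipoprotein, had a level of 1.13 ± 0.06 and Abcg4, a relative of Abcg1, of -3.12 ± 0.05 (SD, n = 4). Apoa1, Lipe and Cav1 were not detected, and Lcat was detected on 2 arrays. Of 6 partners and substrates of Mylip, 5 were detected. Lrp8, a lipoprotein receptor, had a level of -2.65 ± 0.09 (SD, n = 4), while Vldlr, another such receptor, was not detected.

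Of 6 genes that process or accompany SREBP, 5 were detected, and Mbtps2, which encodes the second protease, was not. Scap, the escort protein, had a level of 0.59 ± 0.11, Srebf2, the cholesterol-synthesis relative of Srebf1, of 2.18 ± 0.13, and Insig1, the retention protein, of 1.66 ± 0.25 (SD, n = 4). Of 6 other lysophospholipid acyltransferases, 4 were detected. Lpcat2 had a level of -0.62 ± 0.16 and Lpcat4 of -3.44 ± 0.25 (SD, n = 4), while Lpcat1 was detected on 2 arrays and Mboat2 on none.

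**Figure D4:**
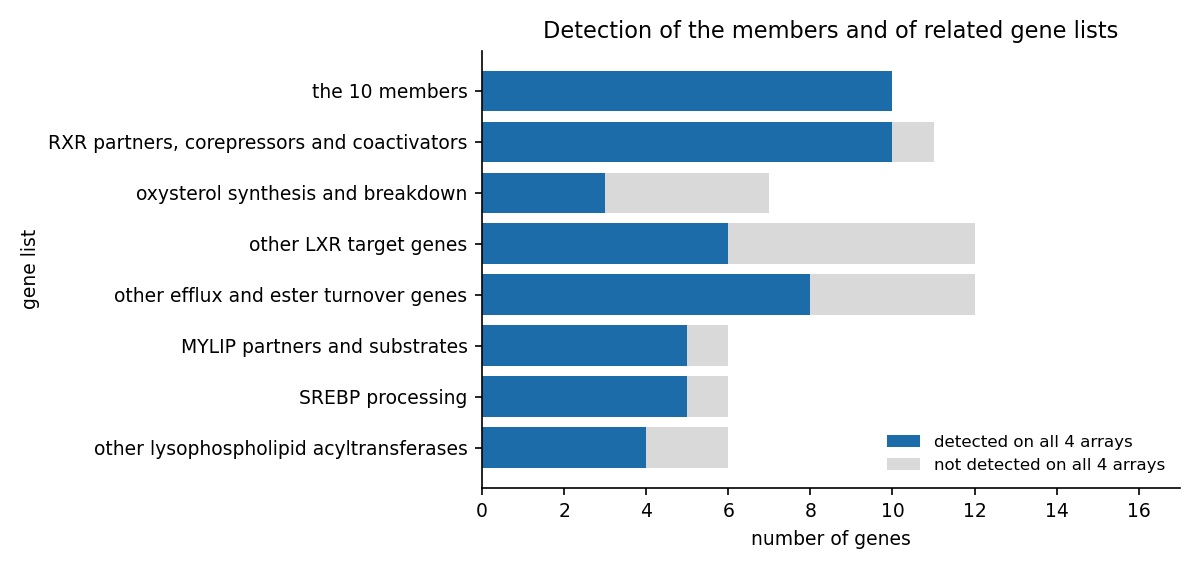
Number of genes (horizontal axis, from 0) in the set of 10 and in each of the 7 lists around it, split into those detected on all 4 arrays (blue) and those not (grey). The bar of the 10 genes is blue throughout, and the lists range from 3 of 7 for oxysterol genes to 10 of 11 for receptor partners. The genes and lists were chosen with earlier results of these data known.

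The labelled cell type was checked with marker genes. All 10 macrophage markers were detected, and the first 3 of the list, Cd68, Csf1r and Spi1, had levels of 4.74 ± 0.05, -0.02 ± 0.10 and -0.43 ± 0.12 (SD, n = 4). Csf1r was detected through 1 of its 2 probes. The markers' SD ranged from 0.05 for Cd68 to 0.74 for Itgam, an integrin subunit with levels of -1.42, -0.56, -1.59 and -0.03 on replicates 1 to 4. Itgam, named for its spread, was 2.95-fold higher on replicate 4 than on replicate 3 (limma variance test, adjusted p = 0.065). Apoe and Abcg1 are also expressed by other cell types, whose markers were measured beside them. Of 8 hepatocyte markers 1 was detected on all arrays, Ahsg at 1.24 ± 0.17 through 1 of its 2 probes, and the other 7 on no array. Of 8 lung epithelial markers 1 was detected on all arrays, Ager at -4.38 ± 0.12, while Sftpa1 and Scgb1a1 were detected on 2 arrays, Sftpc on 1 and the other 4 on none. Of 6 fibroblast markers 2 were detected on all arrays, Col1a2 at -3.54 ± 0.18 and Dcn at -2.24 ± 0.18, and the other 4 on no array. Of 4 astrocyte markers 2 were detected on all arrays, Slc1a3 at 0.99 ± 0.10 and Aldh1l1 at -0.24 ± 0.11, while Gfap was detected on 1 array and Aqp4 on none (all SD, n = 4). Their part in the levels of the 10 genes was not tested. In these bulk RNA samples, fewer cells expressing a gene and less RNA per cell cannot be told apart.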

How the data were processed

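RNA labelled with Cy3 was hybridised to one-colour Agilent rat arrays, and the deposited intensity values were produced by Agilent Feature Extraction 11.0.1.1, as the file headers and the submitters' processing notes state. The processed signal was background-corrected by that software and not normalized between arrays. The software's flags were used as deposited. Of 62976 spots, 58717 were not controls, for 45598 probes, and outlier spots were left out. Replicate spots were averaged. Detection on an array required more than 0.5 of a probe's spots to be well above background, and a gene's level is that of its brightest detected probe. Probes were named through RefSeq accessions of GRCr8 (23740), symbols (5162) or older symbols (355); 16341 kept the array's name.

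The variance test was an F test computed from the fit of limma 3.58.1 in R 4.3.3, with a robust prior following mean signal. Python 3.11.15, numpy 2.4.6, pandas 2.3.3 and matplotlib 3.10.9 were used, and the code was tested on simulated data. The text names each of the 10 genes, the first 3 genes of each list and every list gene not detected; 1 gene that this rule names is not reported here. The genes and lists were chosen with earlier results of these data known. The 4 arrays share 1 slide and 1 scan day, which leaves no batch of slide or day to test, and precision is limited by their number. Alternatives were other detection rules, background corrections, scales and priors, and leaving out each replicate.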

Additional observations from a re-analysis of the deposited data

Results flagged for a closer look

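Among 28 sets of 4 values examined, 1 had a sample far from the others. The second Abcg1 probe had levels of 2.03, 1.83, 2.00 and 2.03 on replicates 1 to 4, and the gap below the other arrays made up 0.849 of the whole range on replicate 2, above Dixon's critical value for 4 samples. Chance alone marks about 1 in 20 such sets. The brighter Abcg1 probe was also lowest on replicate 2.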

How the results depend on the processing

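All 10 genes were detected under every detection rule tried, except that 9 were when every probe of a gene had to be detected; the share over all named genes was 47.3% to 65.5%. None passed the variance test under any of the 12 alternatives, and the lowest adjusted p of the 10 was 0.846 to 0.996 (limma); with so few arrays this does not show that they are stable. The number of probes past that test, 33 of 19400, was 1121 of 45588 without the filter on dim probes. With the same 19400 probes it was 270 with normexp, 50 with the median as scale and 1 with spike-in scale. Without the robust step, without the trend or at a threshold of 0.01 it was 0. It was 0 to 75 when a replicate was left out. The median SD of 0.118 was 0.452 with spike-in scale and lay between 0.0897 and 0.122 on any 3 replicates. The spike-in scale also widened the fold range of all 10 genes, to between 1.66 and 2.42. Mean levels moved beyond 1 SD for 10 genes with the median or spike-in scale, 6 with normexp and 3 with the mean over probes. The median and spike-in scales move the zero of the levels, so the mean level of every gene shifts by the same amount. That of Nr1h3 went from 2.35 to 3.93 with the median and to 0.09 with the spike-in scale. The mean over probes brings in the dimmer probe of Abcg1, Soat1 and Srebf1. The cause of the other shifts was not tested. No paired analysis was possible because all samples belong to 1 group. Signal over background limits Apoe and Abca1, the dimmest of the 10.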

Other observations

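Of the 41 detected genes around the receptors, 3 had an unadjusted p under 0.05 in the variance test (limma), as did 6.5% of all 19400 probes. None of the 41 passed after adjustment over all probes. The 3 genes are named after their values were seen. Apoc2, a lipoprotein lipase cofactor, had levels of -4.46, -4.36, -5.69 and -3.84 on replicates 1 to 4 (adjusted p = 0.338). Mlxipl, which encodes the carbohydrate-responsive transcription factor ChREBP, had levels of -3.83, -3.95, -4.76 and -3.72 (adjusted p = 0.740). Both were lowest on replicate 3, with 22.8 units for Apoc2 and 43.4 units for Mlxipl. The dimmest detected probe of that array gave 19.1 units, so Apoc2 was close to the limit of detection there. Insig1, which retains SREBP in the endoplasmic reticulum and is itself an SREBP target, had levels of 1.94, 1.76, 1.58 and 1.35 (adjusted p = 0.541), with 1.51-fold between the extremes.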
